A study of Mus musculus with 10 samples.

Results

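The genes described here are the chaperones and protein folding factors measured in mouse liver, of the endoplasmic reticulum (ER), the cytosol and other compartments. They are all genes whose single symbol in the array's annotation belongs to the Dnaj, Hsp, Pdia, Sec6, Ssr, Derl, Edem, Sdf2, Calr, Canx, Ero1 or Herpud names or is Xbp1, Atf4, Atf6, Ern1, Hyou1, Creld2 or Manf. Of 7542 genes with a single symbol, 50 met this rule, and each was represented by the probe set with the highest mean over all arrays. The 50 genes had 75 probe sets, 32 genes having 1 and 18 having more.

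Livers of male mice were compared on Affymetrix MG_U74Bv2 arrays. TgSREBP-1a and TgSREBP-2 mice carried transgenes for human SREBP-1a or SREBP-2 in its active nuclear form, were 12 to 16 weeks old, and ate a diet high in protein and low in carbohydrate for 2 weeks, which raises the transgenes' expression; wild type littermates had the same age and diet. Scap-/- mice carried MX1-Cre and lost SCAP, the escort that brings SREBP precursors to their activating proteases; they and their wild type controls were 10 to 12 weeks old, ate chow, and received 4 injections of polyinosinic-polycytidylic acid to induce Cre, with livers taken 14 days after the last. Each group was 1 pool of RNA from 5 livers, hybridised to 2 arrays, giving 10 arrays in 5 groups. The p-values below therefore compare pools against hybridisation error and hold no information on the spread between mice. Which promoter drives the transgenes was not stated in the labels. The Mx1 promoter responds to interferon and is not confined to hepatocytes. The wild type pools of both studies differ in age, diet, injections and breeding, which cannot be told apart.

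Proteins that enter the ER pass the Sec61 channel with its helpers Sec62, Sec63 and the TRAP complex (Ssr genes). HSP70-type chaperones, driven by J-domain partners and exchange factors, fold them, disulphide isomerases and Ero1 oxidases set their disulphide bonds, and Edem, Derl and Herpud proteins pass those that fail to degradation. When unfolded proteins accumulate, the sensors Ern1 (IRE1alpha) and Atf6 start the unfolded protein response, and Atf6 is activated by the same Golgi proteases that cut SREBPs. The liver depends on this machinery because hepatocytes secrete most plasma proteins. Of its best known genes, Hspa5 (BiP), Hsp90b1, Calr, Canx, Xbp1 and Atf4 are not analysed here.

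Promoter sequence was matched by Entrez gene identifier to RefSeq's table for GRCm38.p6 for 41 of the 50 genes, using the first listed start of each gene. Not matched were Atf6, Dnajc5, Dnajc12, Dnajc18, Dnajc22, Dnajc30, Hsp90aa1, Hspa13 and Hyou1. The ER stress response element, the best known motif of genes of the unfolded protein response, was searched on both strands as CCAAT and CCACG with any 9 bases between them, in the 250 bases before the start. It was present in 4 of 41 promoters (9.76%), those of Calr4, Derl3, Dnajc3 and Ero1b, and in 0.122% of all 27025 promoters searched the same way. These elements are shown, in capitals, with their flanks, because this is the motif that genes of the unfolded protein response are best known for; on the strand printed the element reads as its reverse complement in Calr4, Derl3 and Ero1b.
Calr4, chr4:109218218-109218276, plus strand: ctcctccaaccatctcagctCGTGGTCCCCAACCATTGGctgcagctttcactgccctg
Derl3, chr10:75893222-75893280, plus strand: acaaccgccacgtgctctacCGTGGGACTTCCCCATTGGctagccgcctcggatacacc
Dnajc3, chr14:118937807-118937865, plus strand: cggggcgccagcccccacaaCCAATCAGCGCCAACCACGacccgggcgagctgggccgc
Ero1b, chr13:12565662-12565720, plus strand: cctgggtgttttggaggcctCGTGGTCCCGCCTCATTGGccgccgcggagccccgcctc
None of these 4 genes was called in any comparison below with all 10 arrays in the fit. A shorter element, TGACGTGG, was present in 1 promoter (2.44%, Dnajc25; 0.503% of all), and ATTGG followed after any 1 base by CCACG in 0 (0.0333% of all). A sterol regulatory element spelled TCACNCCAC was present in 0 of the 41 promoters, against 1.04% of all. CACGTG was present in 6 (14.6%; 6.05% of all), the heat shock motif, GAA, TTC and GAA with any 2 bases after each of the first ones, in 1 (2.44%, Sec62; 0.4% of all), and CCAAT, which is also part of the ER stress response element, in 14 (34.1%; 34.5% of all). A match describes letters only, and its absence concerns only these letters in this window.

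The 250 bases before the start are shown next for the 3 genes that differed between groups and had a promoter in the table. Capitals mark CCAAT or its reverse complement ATTGG, and CACGTG in Pdia2.
Sdf2l1, chr16:17132384-17132633, minus strand: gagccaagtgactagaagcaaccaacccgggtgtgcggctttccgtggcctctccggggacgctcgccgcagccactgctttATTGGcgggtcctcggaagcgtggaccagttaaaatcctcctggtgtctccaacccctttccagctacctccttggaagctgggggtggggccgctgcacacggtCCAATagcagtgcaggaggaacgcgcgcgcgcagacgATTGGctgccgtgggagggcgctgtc
Pdia2, chr17:26199088-26199337, minus strand: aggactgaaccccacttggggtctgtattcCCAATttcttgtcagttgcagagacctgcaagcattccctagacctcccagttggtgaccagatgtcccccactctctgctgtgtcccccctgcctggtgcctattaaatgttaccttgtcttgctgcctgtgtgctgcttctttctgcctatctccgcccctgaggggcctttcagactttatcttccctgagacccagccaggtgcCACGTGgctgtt
Hspa2, chr12:76404120-76404369, plus strand: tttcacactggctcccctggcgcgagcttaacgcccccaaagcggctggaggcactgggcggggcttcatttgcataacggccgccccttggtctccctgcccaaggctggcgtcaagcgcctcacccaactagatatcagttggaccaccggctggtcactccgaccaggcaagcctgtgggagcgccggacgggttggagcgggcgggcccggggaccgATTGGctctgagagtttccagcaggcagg
Sdf2l1 held 3 CCAAT boxes, 1 of them in the printed orientation, while Pdia2 and Hspa2 held 1 each.

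Values are log2 expression values, and differences are in log2 units with the standard error (SE) of limma, n = 2 arrays per group. A gene was called where the Benjamini-Hochberg adjusted p over all 12411 probe sets was under 0.05 and the change was at least 1.5-fold. Duplicate arrays correlated at 0.9871 to 0.9944. The second TgSREBP-2 array was closer to an array of the wild type littermates (0.9915) than to its duplicate (0.9891). The differences from TgSREBP-2 of most genes named below are therefore also given without it. Those values rest on 1 TgSREBP-2 array, which is assumed to vary like the arrays of the other groups. In the Scap study each array was closest to an array of the other group. Duplicates of the 50 genes differed with an SD of 0.115 (TgSREBP-1a), 0.156 (TgSREBP-2) and 0.114 (wild type littermates), and of 0.17 (Scap-/-) and 0.179 (its wild type). Scap itself read 7.94 and 7.75 in Scap-/- liver, against 9.24 and 8.89 in its wild type, and fell by 1.22 ± 0.18 (limma, adjusted p = 0.018). Of 11 SREBP target genes, a list drawn up with earlier results known, 10 were called higher in TgSREBP-1a, 11 higher in TgSREBP-2 and 9 lower in Scap-/-. Of 22 listed hepatocyte markers 5 were measured. Apoa1 read 12.22 to 13.39 over the 10 arrays and Hnf4a 9.77 to 10.75. C8b read 7.88 to 10.81, C8a 6.30 to 9.39 and Tdo2 7.56 to 9.73, each lowest in TgSREBP-1a.

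Among the chaperone genes, few were called, and every call involved TgSREBP-1a. In TgSREBP-1a liver 4 of 50 genes were called against wild type (8%, against 2.77% of all genes with a single symbol). Dnajc22 was higher (1 gene, 2%, against 1.78% of all), and Dnajc12, Hyou1 and Sdf2l1 were lower (3 genes, 6%, against 0.994%). In TgSREBP-2 and in Scap-/- liver 0 were called by limma (0.557% and 0.331% of all genes). Between the transgenic lines 3 of 50 differed (6%, against 2.25% of all): Dnajc12 and Pdia2 were lower in TgSREBP-1a (4%, against 0.782%) and Hspa2 was higher (2%, against 1.47%). Between the wild type pools 0 were called (0.636% of all). In all, 6 genes were called in at least 1 comparison and 44 in none, and 0 of the probe sets not chosen to stand for a gene were called. Each of the 6 called genes had only 1 probe set, so no call could be compared with a second probe set. Of the 50 genes, 17 lay below the median probe set of the array (5.65), Dnajc12 and Hspa2 among them.

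**Figure D1:**
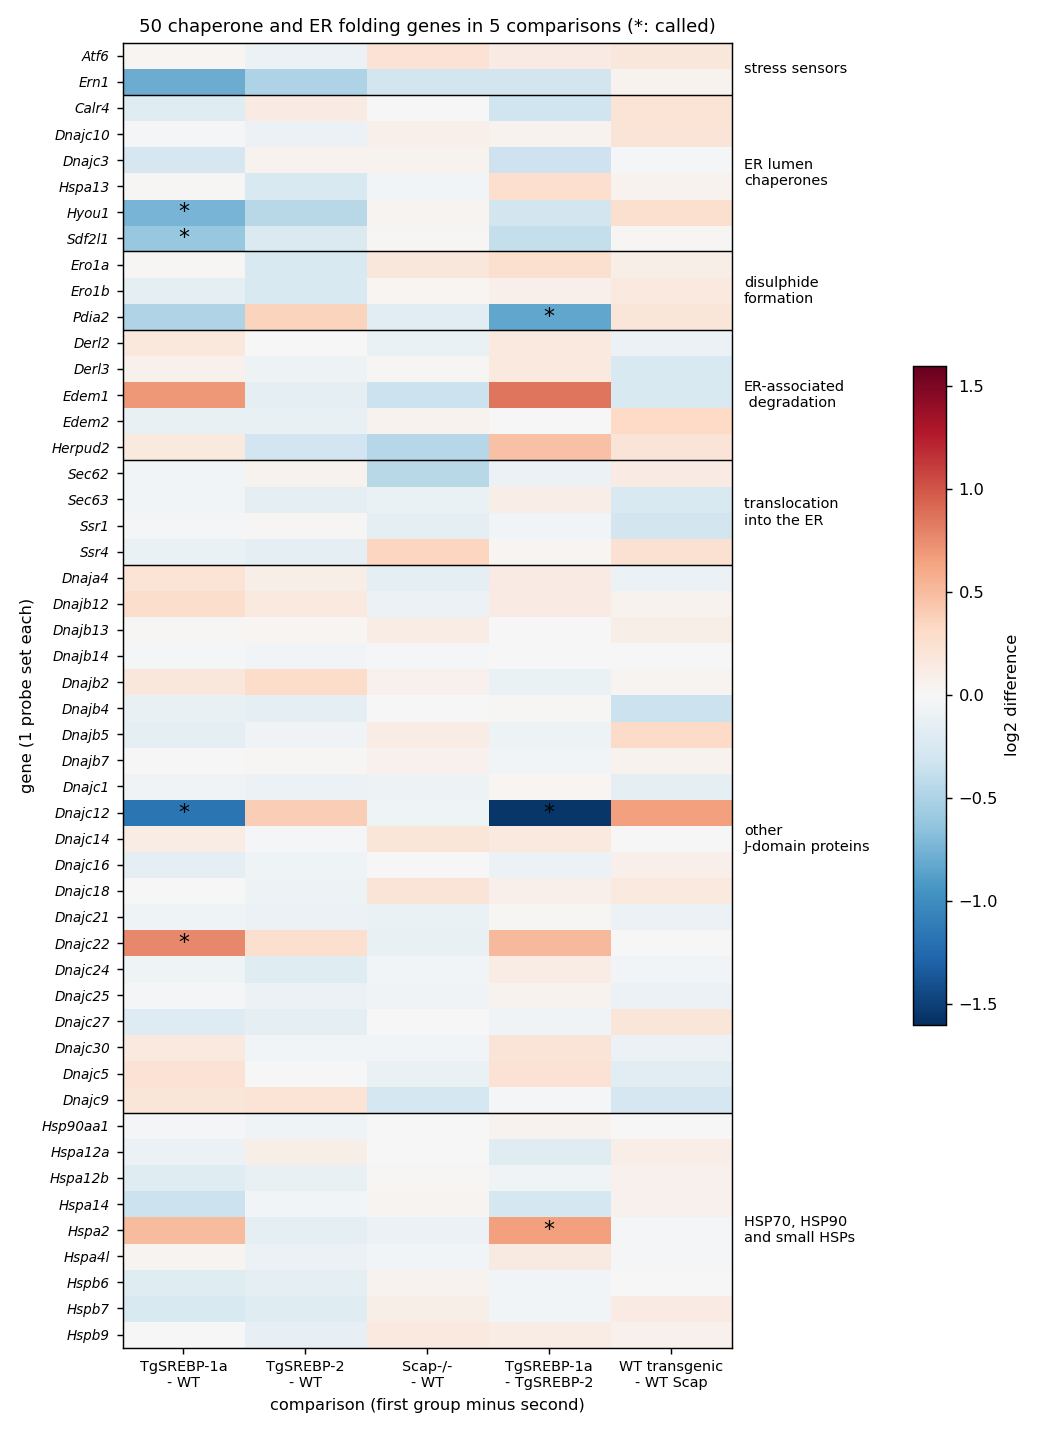
Colour gives the log2 difference (first group minus second) of 50 genes, 1 probe set each, in rows grouped by role, for the 5 comparisons in columns, and a star marks a called gene. Most cells are pale, and the 7 stars fall in the columns of TgSREBP-1a against wild type and TgSREBP-1a against TgSREBP-2.

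As the map of log2 differences shows, most single differences were small. The median of the set is read beside that of all genes, and had an SD of 0.0232 between duplicate arrays. It lay furthest from that of all genes in TgSREBP-2, where both medians were below 0. The median log2 difference of the 50 genes was -0.028 in TgSREBP-1a, where that of all genes was -0.012, and the single genes ranged from -1.17 to 0.77. It was -0.085 in TgSREBP-2 (all genes -0.021; range -0.49 to 0.39) and -0.008 in Scap-/- (all genes 0.013; range -0.46 to 0.34). Between the transgenic lines it was 0.026 (all genes 0.01), and between the wild type pools 0.051 (all genes 0.015). The median SE of a single difference was 0.114. In TgSREBP-1a against wild type, 44 of 50 genes lay within 0.5 log2 units of 0, and in TgSREBP-2 and Scap-/- all 50 did.

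Counts by other rules are read against all genes in the same way. In TgSREBP-1a the arrays of 21 genes lay wholly below those of wild type and 10 wholly above (42% and 20%, against 23.4% and 19.9% of all genes). In TgSREBP-2 these were 17 below and 6 above (34% and 12%, against 24.6% and 16%), with the same wild type arrays in both comparisons. In Scap-/- liver 8 lay below and 9 above (16% and 18%, against 14.5% and 19.9%). Between the lines 9 lay below in TgSREBP-1a and 17 above (18% and 34%, against 20.5% and 26.1%). Between the wild type pools, 5 lay below in the transgenic study and 18 above (10% and 36%, against 18.4% and 23.9%), and the same transgenic study arrays stand in the comparisons with both lines. At an unadjusted limma p under 0.05, 10 genes differed in TgSREBP-1a (20%, against 11.6% of all), 6 in TgSREBP-2 (12%, against 8.27%), 3 in Scap-/- (6%, against 7.98%), 9 between the lines (18%, against 15.4%) and 6 between the wild types (12%, against 10.7%). Without the second TgSREBP-2 array, the median log2 difference of the 50 genes was -0.1 in TgSREBP-2 and 0.06 between the lines.

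Among the chaperones of the ER lumen, Hyou1 and Sdf2l1 fell in TgSREBP-1a. Hyou1 (Grp170) is the large HSP70 relative that exchanges nucleotide on BiP. It read 8.16 and 8.28 in TgSREBP-1a, 8.39 and 8.66 in TgSREBP-2, against 9.11 and 8.83 in their wild type, and 8.78 and 8.74 in Scap-/-, against 8.68 and 8.77 in its wild type. Both TgSREBP-1a arrays lay below all other arrays, and both TgSREBP-2 arrays below those of their wild type. Hyou1 fell by 0.75 ± 0.12 in TgSREBP-1a (1.68-fold lower; limma, adjusted p = 0.0083). In TgSREBP-2 the difference was -0.45 ± 0.12 (adjusted p = 0.31; -0.58 ± 0.14 and 0.092 without the second TgSREBP-2 array), and in Scap-/- 0.04 ± 0.12. The call in TgSREBP-1a was lost without the first TgSREBP-1a array or without the first wild type array, with limma adjusted p up to 0.11.

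Sdf2l1, an ER lumen protein that works with BiP and its J-domain partner Dnajb11, fell too. It read 6.81 and 6.58 in TgSREBP-1a, 7.15 and 7.0 in TgSREBP-2, against 7.37 and 7.24 in wild type, and 7.39 and 7.22 in Scap-/-, against 7.29 and 7.29. The TgSREBP-1a arrays were again the lowest of all 10, and the Scap study arrays overlapped. Sdf2l1 fell by 0.61 ± 0.11 in TgSREBP-1a (1.52-fold lower; limma, adjusted p = 0.015). The change lies close to the 1.5-fold minimum. The call was lost without the second TgSREBP-1a array or without either wild type array (adjusted p up to 0.18). In TgSREBP-2 the difference was -0.23 ± 0.11 (adjusted p = 0.66; -0.16 ± 0.14 without the second TgSREBP-2 array), and in Scap-/- 0.02 ± 0.11.

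The other 4 lumen chaperones were not called in any comparison. Dnajc3 (p58IPK), a J-domain partner of BiP, read 6.19 and 6.06 in TgSREBP-1a, 6.58 and 6.34 in TgSREBP-2, against 6.49 and 6.31 in wild type. Its TgSREBP-1a arrays lay below those of both other groups. The difference from TgSREBP-2 was -0.33 ± 0.14 (limma, adjusted p = 0.29), and -0.45 ± 0.16 without the second TgSREBP-2 array. The other, dimmer probe sets of Dnajc3 differed between the lines in the other direction, by 0.21 ± 0.12 and 0.04 ± 0.12. In TgSREBP-1a against wild type they differed by -0.06 ± 0.12 and -0.11 ± 0.12. Dnajc10 (ERdj5), which reduces disulphides of proteins on their way to degradation, was dim and read between 4.01 and 4.37 on all arrays. Hspa13, an ER-associated HSP70 relative, read between 5.55 and 6.11. Calr4, a calreticulin homologue, read 4.43 and 4.47 in TgSREBP-1a, against 5.08 and 4.47 in TgSREBP-2, whose arrays disagreed; without the second of these the call of -0.63 ± 0.13 rests on the single array of 5.08, with its spread taken from the other groups. Over the 6 lumen genes the median log2 difference was -0.23 in TgSREBP-1a, -0.16 in TgSREBP-2 and 0.03 in Scap-/-.

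The largest change of all 50 genes was that of Dnajc12, a J-domain protein of the cytosol that is known as the co-chaperone of the aromatic amino acid hydroxylases; in humans its loss raises blood phenylalanine. It read 4.82 and 4.83 in TgSREBP-1a, 6.33 and 6.43 in TgSREBP-2, against 6.15 and 5.83 in their wild type, and 5.45 and 5.09 in Scap-/-, against 5.50 and 5.17 in its wild type. The TgSREBP-1a arrays were the lowest and the TgSREBP-2 arrays the highest of all 10. In TgSREBP-1a it fell by 1.17 ± 0.15 against wild type (2.24-fold lower; limma, adjusted p = 0.0018). Against TgSREBP-2 it was lower by 2.94-fold (log2 difference -1.56 ± 0.15; limma, adjusted p = 0.00047; -1.51 ± 0.20 and 0.0061 without the second TgSREBP-2 array). In TgSREBP-2 the difference from wild type was 0.39 ± 0.15 (adjusted p = 0.55; 0.34 ± 0.20 without that array), and in Scap-/- -0.07 ± 0.15. The wild type pools differed by 0.65 ± 0.15, higher in the transgenic study (limma, adjusted p = 0.14). Both calls were kept in all 17 alternatives in which this dim probe set was tested, including each array left out in turn. Some of the 17 could not lose them. Adjusted p without the fold minimum only loosens the rule, and the mean of probe sets changes no value of a gene with 1.

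Dnajc22, a J-domain protein with several membrane spans whose fly counterpart acts in clathrin-dependent endocytosis, was the 1 gene called higher in TgSREBP-1a against wild type. It read 9.42 and 8.94 in TgSREBP-1a, 8.68 and 8.65 in TgSREBP-2, against 8.54 and 8.29 in wild type, and 8.33 and 8.23 in Scap-/-, against 8.53 and 8.27. Both TgSREBP-1a arrays lay above the other 8. The rise was 0.77 ± 0.16 (1.71-fold; limma, adjusted p = 0.027). It lost its call without the first TgSREBP-1a array, the higher of the pair, or without either wild type array (adjusted p up to 0.27). In TgSREBP-2 the difference was 0.25 ± 0.16 (adjusted p = 0.73), and between the lines 0.52 ± 0.16 (adjusted p = 0.16). Without the second TgSREBP-2 array these were 0.27 ± 0.20 and 0.50 ± 0.20.

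The remaining 19 J-domain proteins of the cytosol, membranes and other compartments had no call in any comparison. Dnajb12, an ER membrane protein that hands substrates to degradation, read 8.42 and 8.37 in TgSREBP-1a, against 8.07 and 8.15 in wild type. The difference was 0.28 ± 0.10 (limma, adjusted p = 0.30), while its other probe set differed by 0.02 ± 0.10. Dnajc5, the cysteine string protein of secretory vesicles, had 4 probe sets that did not move together: the brightest differed by 0.23 ± 0.16 in TgSREBP-1a and another by 0.56 ± 0.20 (adjusted p = 0.78 and 0.26). Dnajb4 and Dnajb5, cytosolic partners of HSP70, had their largest differences between the wild type pools, -0.34 ± 0.15 and 0.30 ± 0.10 (limma, adjusted p = 0.49 and 0.35). A dimmer probe set of Dnajb4 differed there by 0.26 ± 0.09, in the other direction (adjusted p = 0.37). Dnajb14, a relative of Dnajb12, had group means within 0.04 of each other on its brightest probe set, while another differed by -0.45 ± 0.15 between the wild type pools (adjusted p = 0.33). Over the class of 21 J-domain proteins the median log2 difference was -0.01 in TgSREBP-1a, -0.04 in TgSREBP-2 and -0.05 in Scap-/-.

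Of the genes for disulphide formation, Pdia2 differed between the transgenic lines. Pdia2 is a protein disulphide isomerase best known from the pancreas. It read 5.66 and 5.75 in TgSREBP-1a, against 6.66 and 6.41 in TgSREBP-2, with 6.18 and 6.20 in their wild type, and 5.60 and 6.04 in Scap-/-, against 6.02 and 5.98 in its own. In the transgenic study the 3 groups did not overlap, with wild type in the middle. It was 1.78-fold lower in TgSREBP-1a than in TgSREBP-2 (log2 difference -0.83 ± 0.14; limma, adjusted p = 0.011; -0.95 ± 0.16 and 0.019 without the second TgSREBP-2 array). Against wild type the differences were -0.48 ± 0.14 in TgSREBP-1a and 0.35 ± 0.14 in TgSREBP-2 (limma, adjusted p = 0.14 and 0.57). The call between the lines was lost without either TgSREBP-1a array or without the first TgSREBP-2 array (adjusted p up to 0.13).

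The ER oxidases Ero1a and Ero1b, which recharge the isomerases, were not called. Ero1a read 6.65 and 6.78 in TgSREBP-1a, 6.34 and 6.58 in TgSREBP-2, against 6.66 and 6.75 in wild type. Within the transgenic study only the TgSREBP-2 arrays stood apart, and the difference was -0.24 ± 0.10 (limma, adjusted p = 0.61; -0.36 ± 0.11 and 0.19 without the second of them). In Scap-/- liver it read 6.81 and 6.77, against 6.60 and 6.62 in its wild type. Ero1b differed by the same -0.24 ± 0.10 in TgSREBP-2 (-0.28 ± 0.13 without that array).

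Hspa2, an HSP70 best known from the testis, was the 1 gene called higher in TgSREBP-1a in the direct comparison of the lines. It read 5.68 and 5.50 in TgSREBP-1a, against 4.91 and 4.95 in TgSREBP-2, with 5.11 and 5.08 in their wild type, and 5.23 and 4.78 in Scap-/-, against 5.17 and 5.04. The TgSREBP-1a arrays were the highest of all 10. The difference between the lines was 0.65 ± 0.14 (1.57-fold; limma, adjusted p = 0.041). It was lost without any 1 of the 6 arrays of the transgenic study, with adjusted p up to 0.36 (0.075 without the second TgSREBP-2 array). Against wild type Hspa2 differed by 0.50 ± 0.14 in TgSREBP-1a (adjusted p = 0.12). The other 8 genes of the HSP70, HSP90 and small HSP families were not called; Hsp90aa1, the stress-inducible cytosolic HSP90, was measured by 1 dim probe set, between 3.31 and 3.54 on all arrays.

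**Figure D2:**
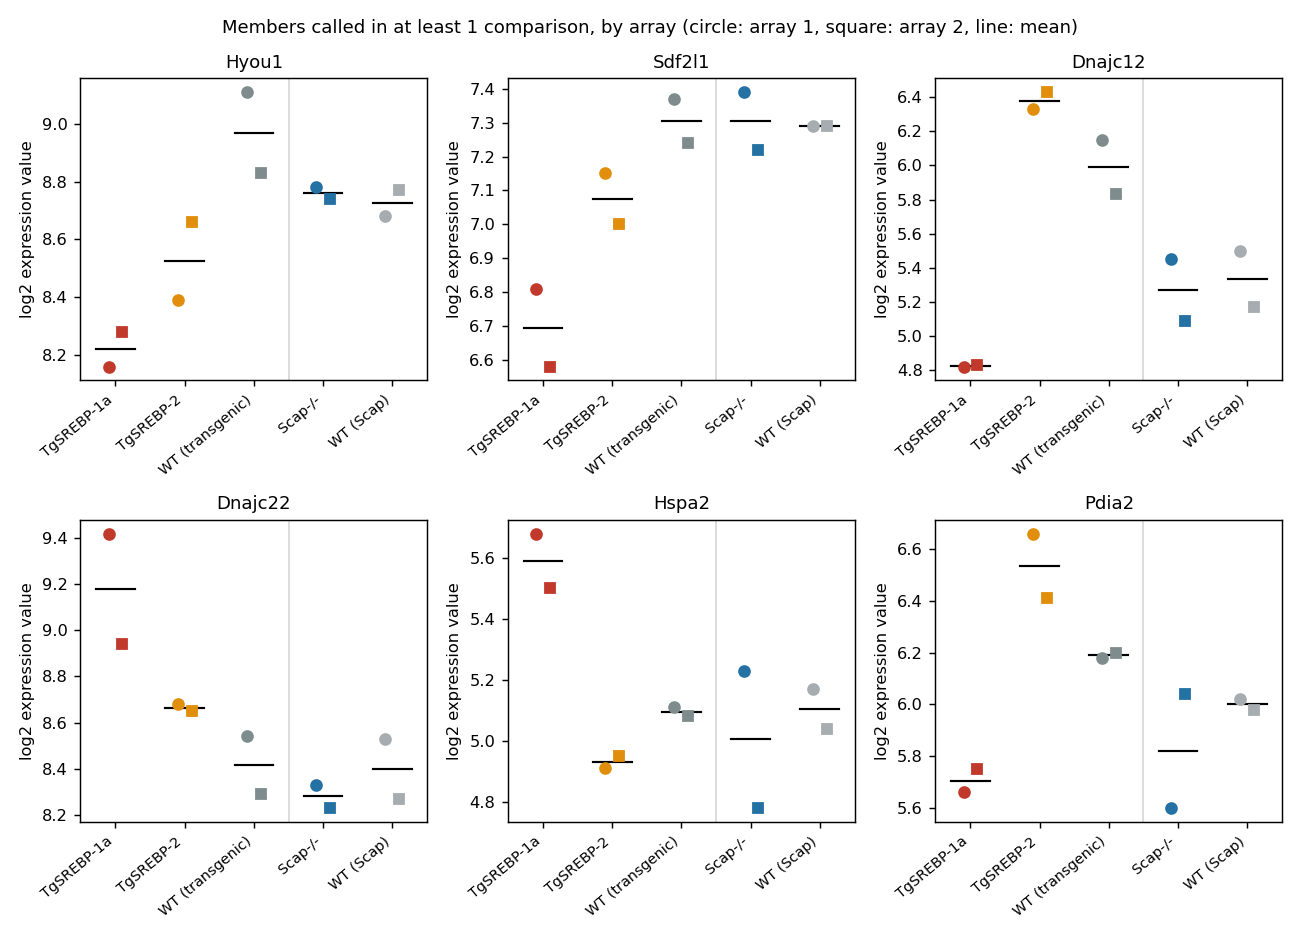
Log2 expression values of the 6 called genes on each of the 10 arrays, with the 5 groups along the horizontal axis, circles for array 1, squares for array 2 and a line at the group mean (n = 2). Hyou1, Sdf2l1 and Dnajc12 are lowest in TgSREBP-1a, Dnajc22 and Hspa2 highest there, and Pdia2 is highest in TgSREBP-2.

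In the plot of the 6 called genes, the TgSREBP-1a arrays hold the lowest pair for 3 genes and the highest pair for 2, while Scap-/- and its wild type overlap for Sdf2l1, Dnajc12, Hspa2, Hyou1, Dnajc22 and Pdia2. The patterns over the 5 group means were compared among the 50 genes, as a description over 5 points that come from arrays of shared pools. Dnajc12 was most like Pdia2 (Pearson r of 0.97), Sdf2l1 most like Hyou1 (0.94), Dnajc22 most like Dnajb12 (0.95) and Hspa2 most like Edem1 (0.97). Hyou1 was most like Hspa12b (1), whose group means spanned only 0.19.

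The genes of ER-associated degradation had 0 calls among 5. Edem1, which recognises trimmed glycans on misfolded glycoproteins, read 9.18 and 8.76 in TgSREBP-1a, 8.14 and 8.08 in TgSREBP-2, against 8.47 and 8.07 in wild type, and 8.25 and 8.10 in Scap-/-, against 8.77 and 8.26. Both TgSREBP-1a arrays lay above those of the other transgenic study groups. The difference was 0.70 ± 0.19 from wild type and 0.86 ± 0.19 from TgSREBP-2 (limma, adjusted p = 0.12 and 0.052), and passed the threshold in a fit of only the 4 arrays compared (adjusted p = 0.046 and 0.013). From TgSREBP-2 it was 0.83 ± 0.25 (adjusted p = 0.11) without the second TgSREBP-2 array. Its other, dim probe set differed by -0.17 ± 0.21 and -0.37 ± 0.21. Herpud2, a membrane protein related to the degradation factor Herpud1, read 6.89 and 6.59 in TgSREBP-1a, 6.11 and 6.44 in TgSREBP-2, against 6.79 and 6.38 in wild type, and 6.08 and 5.76 in Scap-/-, against 6.69 and 6.07. Its difference of -0.46 ± 0.22 in Scap-/- was the largest of the 50 genes in that comparison, and its arrays overlapped (limma, adjusted p = 0.66). Edem2, Derl2 and Derl3 lay within 0.35 between their extreme group means.

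The sensors were not called. Ern1 read 7.15 and 6.76 in TgSREBP-1a, 7.21 and 7.29 in TgSREBP-2, against 7.89 and 7.59 in wild type, and 7.76 and 7.03 in Scap-/-, against 8.06 and 7.31. Both transgenic lines lay below their wild type without overlap, while duplicates of the Scap study differed by more than the groups. The differences were -0.79 ± 0.27 in TgSREBP-1a and -0.49 ± 0.27 in TgSREBP-2 (limma, adjusted p = 0.25 and 0.69; -0.53 ± 0.35 in TgSREBP-2 without its second array). With only the 4 arrays of the comparison in the fit, the TgSREBP-1a difference passed (adjusted p = 0.015). Its other probe set differed by 0.08 ± 0.13 and -0.07 ± 0.13. Atf6 read between 5.77 and 6.17 on all arrays and differed by 0.03 ± 0.11 in TgSREBP-1a, -0.10 ± 0.11 in TgSREBP-2 and 0.23 ± 0.11 in Scap-/-.

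Genes of translocation into the ER had 0 calls among 4. Sec62, a channel partner that also acts in ER turnover, read 8.31 and 7.77 in Scap-/-, against 8.66 and 8.30 in its wild type, a difference of -0.44 ± 0.20 with overlapping arrays (limma, adjusted p = 0.64), while its other probe set differed by 0.03 ± 0.11. Ssr4, a TRAP subunit, read 4.97 and 5.45 in Scap-/-, against 4.81 and 4.93, a difference of 0.34 ± 0.14 (limma, adjusted p = 0.62). In TgSREBP-1a the 4 genes lay between -0.11 and -0.03.

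The neighbouring pathways were read from lists drawn up with earlier results of these data known, each without the 50 genes. None of the lists had a gene called by limma in any of the 5 comparisons. Measured were 7 of 27 listed genes of unfolded protein response signalling, 21 of 56 of ER folding, disulphide and glycan enzymes, 21 of 48 of translocation and N-glycosylation, 17 of 36 of ER-associated degradation, and 17 of 52 chaperones and co-chaperones of the cytosol and mitochondria. At an unadjusted p under 0.05, TgSREBP-1a against wild type gave 3, 5, 3, 2 and 3 of them in that order (11.6% of all genes). TgSREBP-2 gave 1, 1, 0, 0 and 0 (8.27% of all) and Scap-/- 0, 5, 0, 1 and 0 (7.98%). Between the lines there were 3, 3, 3, 2 and 1 (15.4%), and between the wild type pools 2, 4, 4, 0 and 1 (10.7%). The medians in TgSREBP-1a were -0.04, -0.07, -0.02, 0.12 and 0. Nearest to a call in TgSREBP-1a was Jkamp, a membrane protein that recruits degradation factors, at 0.53 ± 0.13 (limma, adjusted p = 0.055). Chac1, a glutathione-degrading enzyme induced by ER stress, differed by -0.43 ± 0.10 between TgSREBP-1a and TgSREBP-2, and the prolyl isomerase Fkbp14 by 0.39 ± 0.09 (limma, adjusted p = 0.055 and 0.06). The protease gene Mbtps2, which cuts both SREBPs and Atf6, differed by 0.32 ± 0.11 in TgSREBP-1a (adjusted p = 0.29). Of 18 listed circadian clock genes 11 were measured, with 0 called in any comparison. At an unadjusted limma p under 0.05 there were 2 in TgSREBP-1a, 2 in TgSREBP-2 and 1 in Scap-/-. Between the lines there were 3 and between the wild type pools 1, to be read beside the same shares of all genes. The largest clock difference was that of Nr1d2 between the wild type pools, 1.06 ± 0.22 (limma, adjusted p = 0.093).

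Markers of other cell types moved in the same comparisons. In TgSREBP-1a liver 2 of 4 measured pancreatic acinar markers (of 23 listed) were called lower against wild type, and the summed linear level of the 4 was 323 to 329, against 2080 to 2740 in wild type and 3320 to 4340 in TgSREBP-2. Cpb1, a pancreatic carboxypeptidase, read 5.22 and 4.98 in TgSREBP-1a, 10.62 and 10.19 in TgSREBP-2, against 10.01 and 9.53 in wild type. Among the 3 groups of the transgenic study it thus had the same order as Dnajc12 and Pdia2. In Scap-/- liver Cpb1 fell as well, by 3.21 ± 0.21, to 5.86 and 5.50, against 9.11 and 8.68 in its wild type (limma, adjusted p = 0.00014), and the summed acinar level was 368 to 387, against 1020 to 1230. There the differences of Pdia2 (-0.18 ± 0.14), Dnajc12 (-0.07 ± 0.15), Hyou1 (0.04 ± 0.12) and Sdf2l1 (0.02 ± 0.11) were all uncalled. Bhlha15, a regulator of acinar cells, read between 6.60 and 6.89 on all arrays.

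**Figure D3:**
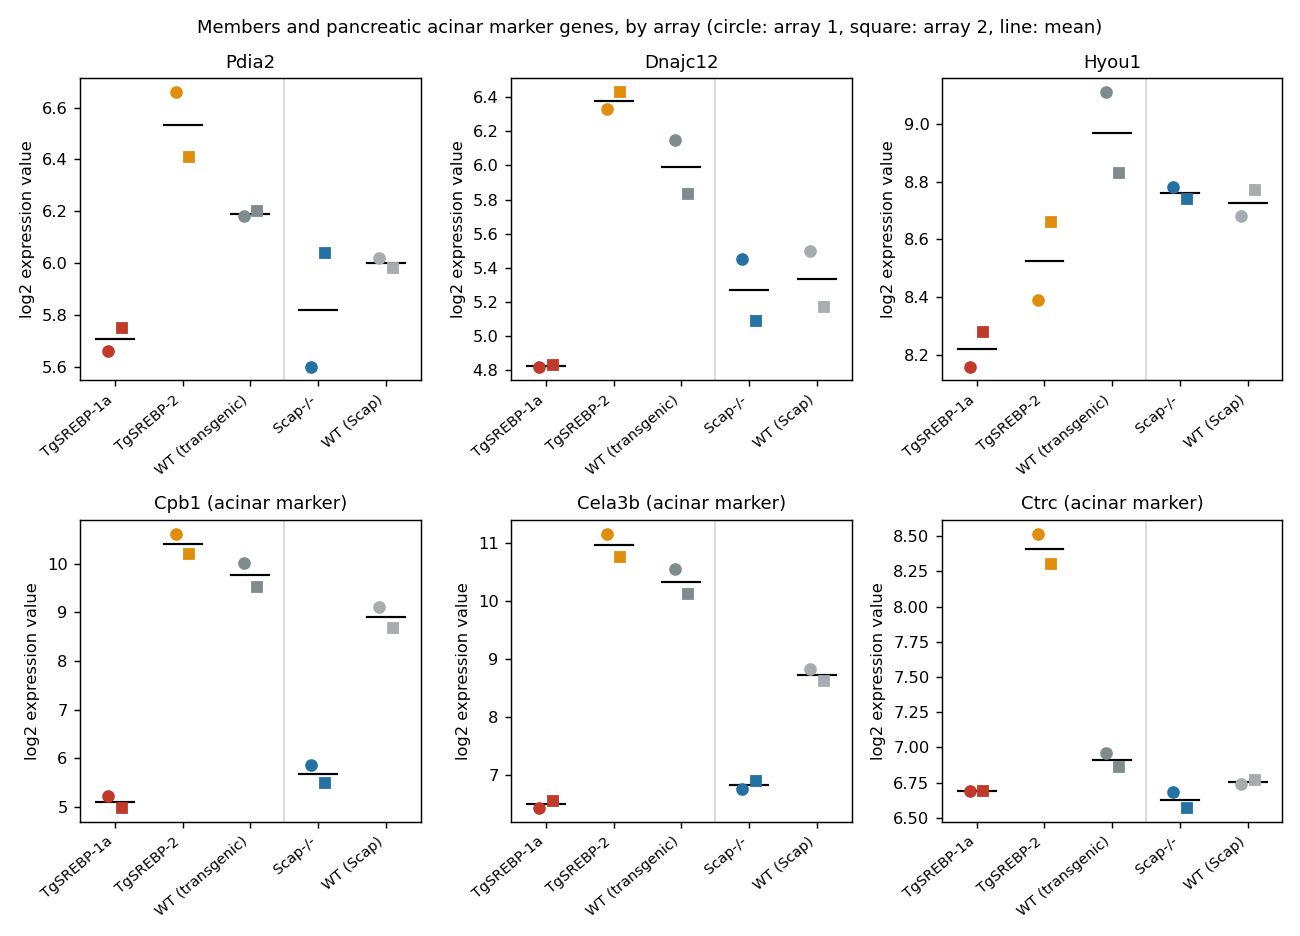
Log2 expression values of Pdia2, Dnajc12 and Hyou1 (top) and of the acinar markers Cpb1, Cela3b and Ctrc (bottom) on each array, with the 5 groups along the horizontal axis, circles for array 1, squares for array 2 and a line at the group mean (n = 2). Cpb1 and Cela3b are low in TgSREBP-1a and in Scap-/-, while the genes in the top row are low in TgSREBP-1a and overlap between Scap-/- and its wild type.

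Hepatocyte markers were lower in TgSREBP-1a too: 2 of 5 measured (of 22 listed) were called, C8a and C8b, and the summed level was 8990 to 9820, against 13200 to 14900 in wild type and 7620 to 13200 in TgSREBP-2. The macrophage marker Cd163 (1 of 2 measured) and the endothelial marker Lyve1 (1 of 5) were called higher, and 0 of 3 plasma and B cell, 1 T and NK cell, 1 stellate cell, 2 bile duct and 2 erythroid markers were called in TgSREBP-1a. Between the lines 3 of 4 acinar and 2 of 5 hepatocyte markers were called lower in TgSREBP-1a. Called higher there were 2 of 5 endothelial markers, Lyve1 (0.82 ± 0.10) and Ptprb (1.02 ± 0.18), and 1 of 2 macrophage markers, Cd163 (1.21 ± 0.15). The other macrophage marker differed by -0.09. The erythroid marker Tfrc (1 of 2 measured) differed by -1.38 ± 0.23 between TgSREBP-1a and TgSREBP-2, and was 2.83-fold higher in TgSREBP-2 against wild type. The other erythroid marker differed by -0.11 between the lines and by 0.05 in TgSREBP-2 against wild type. The part of these shifts in the results for Hyou1, Sdf2l1, Dnajc12, Dnajc22, Pdia2 and Hspa2 was not tested. In whole liver, fewer cells of a type and less RNA per cell cannot be told apart.

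**Figure D4:**
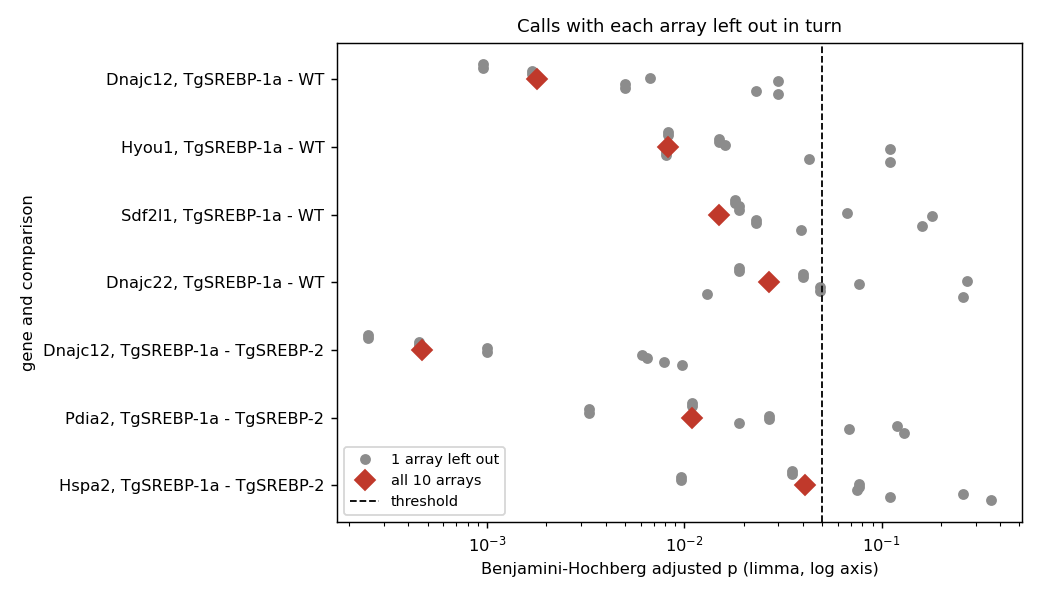
Adjusted p (limma, Benjamini-Hochberg, log axis) of the 7 calls, in rows, with all 10 arrays (red diamonds) and with each array left out in turn (grey circles), with a dashed line at 0.05. Both rows of Dnajc12 lie wholly left of the line, and each of the other 5 has circles on its right.

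The plot of adjusted p with arrays left out separates Dnajc12 from the other 5 genes. Its adjusted p stayed between 0.00095 and 0.03 against wild type, and between 0.00025 and 0.0097 against TgSREBP-2. Hyou1 kept its call in 8 of 10 such fits, Sdf2l1, Dnajc22 and Pdia2 in 7 of 10, and Hspa2 in 4 of 10.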

How the data were processed

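The authors deposited log2 expression values made with RMA, per the submitters' processing notes, which give no version; the series' design text names MICROARRAY SUITE 5.0 instead. They were used as deposited. RMA corrects background, scales all arrays to 1 distribution and summarises probes, so differences are relative to the whole array. Of 12477 probe sets, 66 controls were left out; the platform's annotation gave 10581 of the others 1 symbol, 178 several and 1652 none. A limma 3.58.1 model in R 4.3.3 (lmFit, eBayes) took all 10 arrays and 12411 probe sets, with a coefficient for each group, tests being two-sided, and was tested on simulated data. The duplicates share 1 RNA pool, and their number limits the precision; no test between mice is possible.

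The 50 genes, the lists, the markers and the roles were chosen with earlier results of these data known. Named by rule were the called genes, the 5 largest differences per comparison, central chaperones and sensors, the 3 genes most like each called gene, and up to 4 genes per list; others were named after their values were seen. Alternatives were: only the 4 arrays compared, dim probe sets left out, array medians subtracted, cyclic loess, eBayes with trend and robust, the mean of a gene's probe sets, adjusted p or fold alone, a replicate block, and each array left out.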

Additional observations from a re-analysis of the deposited data

Results flagged for a closer look

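The TgSREBP-1a pool differed from the TgSREBP-2 pool in 3 genes by a direct test, against hybridisation error only; both share diet, age and wild type. Dnajc12 differed by -1.56 ± 0.15 between TgSREBP-1a and TgSREBP-2 (limma, adjusted p = 0.00047), with arrays of 4.82 and 4.83 in TgSREBP-1a, against 6.33 and 6.43 in TgSREBP-2. Pdia2 differed by -0.83 ± 0.14 (limma, adjusted p = 0.011), and Hspa2 by 0.65 ± 0.14 in the other direction (limma, adjusted p = 0.041). In each case both arrays of one line lay beyond both arrays of the other. The lines' wild type arrays lay between the lines for all 3 genes. Dnajc12 kept its call with each array left out, Pdia2 lost it without either TgSREBP-1a array or the first TgSREBP-2 array, and Hspa2 without any 1 of the 6 transgenic study arrays. Between the lines 3 of 4 acinar, 2 of 5 hepatocyte, 2 of 5 endothelial, 1 of 2 macrophage and 1 of 2 erythroid markers were also called. Their part was not tested.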

How the results depend on the processing

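Called genes stayed at 4 in TgSREBP-1a and 3 between the lines after subtraction of array medians, cyclic loess or a trended robust variance. The mean of a gene's probe sets and adjusted p alone gave the same counts. The called genes had 1 probe set each, so that mean left their values unchanged, and adjusted p alone cannot lose a call. With dim probe sets left out, 1 was called between the lines (Pdia2), since that filter removes Dnajc12 and Hspa2, and 3 in TgSREBP-1a. Fold alone gave 6 in TgSREBP-1a (12%, against 3.66% of all genes) and 4 between the lines (8%, against 3.49%). Between the wild type pools 1 gene, Dnajc12, was called by fold alone (2%, against 2.03% of all genes). Dnajc12 was also the 1 gene called there with a replicate block (limma, adjusted p = 0.028). The block, like a fit of only 4 arrays, added Edem1 and Ern1 in TgSREBP-1a (6 calls, limma adjusted p = 0.0068 and 0.026 with the block). Both also added Edem1 between the lines (4 calls, limma adjusted p = 0.0022 with the block). Over all probe sets, the block raised the calls in TgSREBP-1a to 335, against 270, and between the lines to 306, against 231. It raised them between the wild type pools to 145, against 63, in TgSREBP-2 to 101, against 62, and in Scap-/- to 91, against 34. Hybridisation numbers were to be taken as pairing only where every pair of groups correlated over 0.1 in its deviations; 7 of 10 did (r from -0.17 to 0.6, and at least 0.34 without TgSREBP-2), so arrays were not paired. Only 3 of 10 arrays matched best an array of their own number. With each array left out, 1 to 5 genes were called in TgSREBP-1a, 0 to 0 in TgSREBP-2 and Scap-/-, 1 to 4 between the lines and 0 to 0 between the wild types; the single call left in TgSREBP-1a, without the first wild type array, was Dnajc12. The median log2 difference of the 50 genes then lay between -0.05 and -0.028, -0.098 and -0.06, -0.046 and 0.023, 0.019 and 0.061, and -0.029 and 0.061 in the order TgSREBP-1a, TgSREBP-2, Scap-/-, between the lines, and between the wild types. No named result reversed a called direction. With 2 arrays of 1 pool per group, differences between mice cannot be seen, and 17 of the 50 genes were dim.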
